A study of Physcomitrium patens with 24 samples.

Results

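The genes described here are 150 genes of the moss Physcomitrium patens whose read counts stayed high through a full day at 37 °C and whose level was not clearly raised in the first hour at 30 °C. They were chosen from the measured values themselves. Counts were scaled to CPM (a gene's reads scaled by the column total of its library), and base genes were those with a mean of at least 1 CPM over the 8 libraries kept at 24 °C, which left 18076 of 32926 genes. For each base gene the ratio d was the log2 of (mean CPM + 1) in the heated group over the same at 24 °C and the same hour, minus the median of that log2 ratio over base genes. A gene was kept where d was at least 1 at 37 °C after 1, 6, 12 and 24 h and below 0.5 at 30 °C after 1 h. Of the 535 genes with a sustained 37 °C value, 163 met the limit at 30 °C, and the 150 with the highest minimum of the 4 values of d at 37 °C were retained. The remaining 372 sustained genes had a d of at least 0.5 after 1 h at 30 °C and are used below for comparison.

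Protonemata, the filamentous stage of the moss, of the Gransden strain were grown on agar under 16 h of light and 8 h of dark and harvested as 7-day tissue. Heat was applied continuously at 37 or 30 °C, and tissue was taken after 1, 6, 12 and 24 h at each temperature, which made 12 groups with 2 libraries in each, and the 24 °C groups received no heat. The libraries were described as biological replicates, with no statement on which dishes they came from, so p-values measure the spread between these samples. Library totals ran from 4332911 to 10696081 counted reads. No list of protonema markers by gene identifier was at hand, so the labelled tissue was not checked against markers. In whole tissue, a change in the number of cells of a kind cannot be told apart from a change in RNA per cell.

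Plants answer heat by activating heat shock factors, which bind promoters at heat shock elements made of alternating GAA and TTC units and switch on chaperones that hold or refold other proteins. Chaperone transcripts typically climb within the first hour of heat, and many other transcripts change as well. Dehydrins and other late embryogenesis abundant proteins, which guard membranes and proteins during water loss, are among the non-chaperone products that accumulate under several stresses in mosses and seed plants.

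Product names were found for 14 of the 150 genes. They come from the study's tables, which were built mainly from genes that the study had called and of which the longest were used only in part here, so a missing name says nothing about function and the names were not compared with those of other genes. By name pattern, the 14 included 2 late embryogenesis abundant or dehydrin genes, 1 gene for an F-box protein, 1 mitochondrial or plastid protein, and a kinase and a phosphatase. The name of Pp3c27_2580 joins histidine kinase, DNA gyrase B and HSP90-like ATPase, which is a superfamily label that fits the heat shock and the kinase list and settles neither. No name among the 14 fell in the lists for HSP20-like, HSP70, DNAJ, chaperonin, transcription factor or transporter genes.

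Of the 150 genes, 2 stood in the study's table of heat shock factor motif sites, which covered 49 genes. Only the top-ranked genes of one co-expression module had been scanned for that table, so a gene that is not in it may not have been examined. The sites of Pp3c13_1670, a gene for a protein of the myeloid leukemia factor family, are shown because they carry the element in the longest form among the sites listed for the 2 genes, and those of Pp3c4_21510 for contrast. Each line gives 18 bases on the listed strand, with GAA and TTC units in phase in capitals.
Pp3c13_1670 site with 4 units: GAAgcTTCtaGAAggTTC
Pp3c13_1670 second site with 4 units: GAAgcTTCtaGAAagTTC
Pp3c13_1670 another site with 4 units: GAAggTTCtaGAAacTTC
Pp3c13_1670 site with 3 units: GAAccTTCtaGAAgagaa
Pp3c13_1670 site with 2 units: GAAgcTTCtcgagctact
Pp3c4_21510 site with 2 units: GAAgcatctaGAAgtgcc
Of 10 sites listed for Pp3c13_1670, 4 had 4 units in phase, 3 had 3 and 3 had 2. With their flanks, 9 of the 10 held GAANNTTC and 8 held TTCNNGAA, against 37.3% and 32.8% of the 67 sites in that table. The 67 include these 10, which gave 9 of the 25 sites with GAANNTTC and 8 of the 22 with TTCNNGAA. Neither form was in the 2 sites of Pp3c4_21510. Both forms read the same on either strand and can overlap within a longer run of units. The flanks of neighbouring sites of Pp3c13_1670 also overlap, so the same element can be counted for more than a single site. These letters are a description of a table of predicted sites, and binding was not measured.

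The libraries of 37 °C after 1 h differed from each other in these genes, which has to be stated before any value. In 68 of the 150 genes replicate 2 was at least 2-fold above replicate 1 on the CPM + 1 scale, and in 0 the reverse held. The same was seen in 45 genes one way and 8 the other way among the 372 other sustained genes, and in 5.43% and 3.32% of base genes. Since the rule averaged both libraries, replicate 2 decided part of the membership. With that library left out, 83 of the 150 genes were still kept, and with replicate 1 left out 143 were. In replicate 1 alone 83 genes had a d of at least 1 and 17 had a d at or below 0, whereas in replicate 2 alone 143 had a d of at least 1 and 0 were at or below 0. Leaving out any other library kept between 108 and 150 genes, the lowest without 24 °C 1 h replicate 2 (108), 30 °C 1 h replicate 2 (116) and 24 °C 1 h replicate 1 (129). Only 29 genes were kept without each of the 24 libraries in turn.

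**Figure D1:**
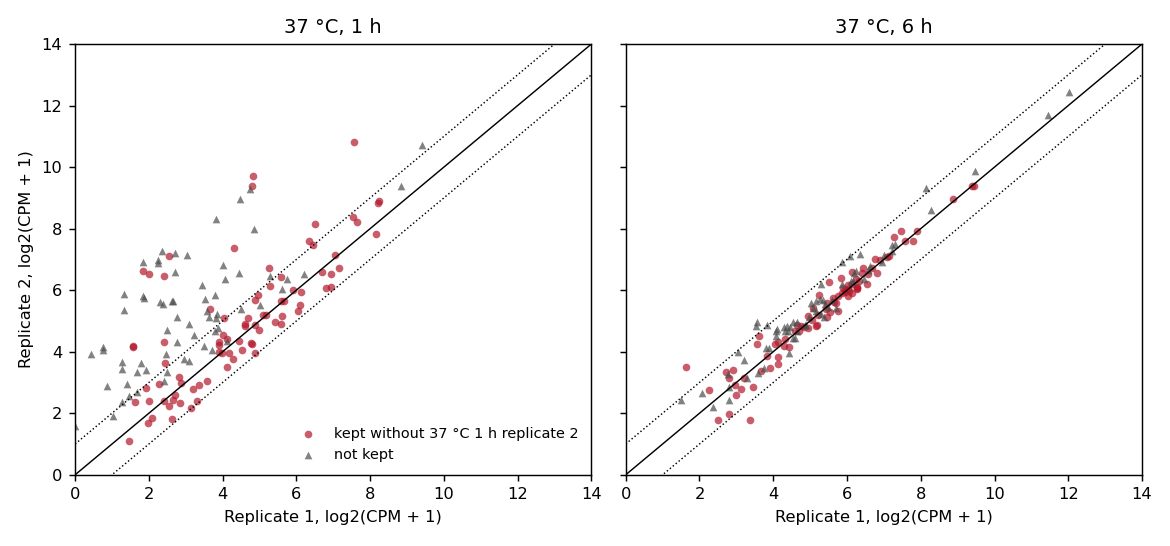
Level of each of the 150 genes in replicate 2 against replicate 1 at 37 °C after 1 h (left) and 6 h (right), as log2(CPM + 1); the solid line marks equal levels and dotted lines a 2-fold difference. Red circles are the 83 genes kept without 37 °C 1 h replicate 2 and grey triangles the other 67; after 1 h, 68 genes lie above the upper dotted line and 0 below the lower one, and after 6 h 7 and 1 do.

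The same genes set other replicate pairs apart. Replicate 2 was at least 2-fold above replicate 1 at 24 °C after 1 h in 21 genes (1.21% of base genes), of which 19 belonged to the 68. At 30 °C after 1 h, replicate 1 was at least 2-fold above replicate 2 in 12 genes (0.775% of base genes), all of them among the 68. At 30 °C after 12 h replicate 2 was the higher by that measure in 15 (2.90% of base genes), of which 12 were among the 68. What set these libraries apart was not tested.

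The 67 genes that needed 37 °C 1 h replicate 2 and the 83 that did not are told apart by their d in replicate 1 of that hour, so the levels of both sets at 37 °C and 24 °C after 1 h follow from the split and are given as a description. At 37 °C after 1 h the median level of the 67 was 2.77 in replicate 1 and 5.34 in replicate 2, on the log2(CPM + 1) scale, against 2.56 and 2.94 in the 24 °C libraries of that hour. From 6 h on, both 37 °C libraries had medians of 4.996 to 5.46, against 2.76 to 3.55 at 24 °C. The 83 genes stood at 4.53 and 4.89 at 37 °C after 1 h, against 2.92 and 3.303 at 24 °C. At 37 °C from 6 h on their medians were 5.50 to 5.76.

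**Figure D2:**
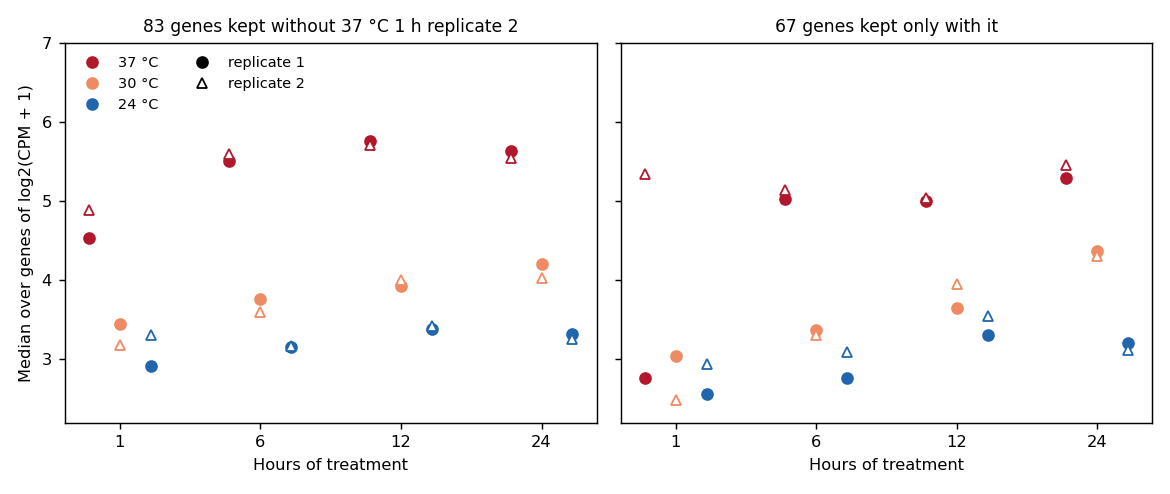
Median level, as log2(CPM + 1), in each of the 24 libraries against hours of treatment (evenly spaced), for the 83 genes kept without 37 °C 1 h replicate 2 (left) and the 67 not kept (right). Filled circles are replicate 1 and open triangles replicate 2; at 37 °C after 1 h the 67 genes stand at 2.77 in replicate 1 and 5.34 in replicate 2.

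The values that chose the genes are given as a description, with no test. The median d of the 150 genes at 37 °C was 1.67 in the first hour and then 2.03, 1.97 and 2.01 at the 6, 12 and 24 h harvests, and the median of each gene's lowest value was 1.37, with a range of 1.04 to 4.98. For the 372 other sustained genes the median d was 2.68 in the first hour and then 1.92, 2.12 and 2.11. At 30 °C after 1 h the median d was 0.17 for the 150 genes and 1.10 for the 372, as the limit at 0.5 imposed. The rule set no lower limit there, so the 150 genes were not all unmoved: their d at 30 °C after 1 h ran from −1.23 to 0.49 and was below 0 in 47. Both 37 °C libraries lay above both 24 °C libraries in 109 genes after 1 h, where 16.0% of base genes did so, in 149 after 6 h (35.4% of base genes), in 149 after 12 h (37.0%) and in 150 after 24 h (47.2%). Since these libraries chose the genes, nothing is read from those counts. Together the 150 genes took 0.2305% to 0.324% of all counts in the 24 °C libraries, 0.315% to 0.725% at 30 °C and 0.563% to 2.71% at 37 °C, where the lowest share was that of replicate 1 after 1 h.

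At 24 °C most of the genes were read rarely. Their median over the 24 °C libraries was 8.37 CPM, against 16.4 CPM for the other sustained genes and 25.9 CPM for base genes, and 54 of the 150 averaged under 5 CPM. CPM is not corrected for gene length, so these are read numbers and not transcript numbers. The highest 37 °C mean fell at 1 h in 24 genes, at 6 h in 25, at 12 h in 42 and at 24 h in 59. These hours come from CPM on column totals, and the shares over base genes were not counted. On that scale the median base gene was itself higher at 24 h than at 1 h, as given below. Nothing is therefore read from these hours about the members.

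Within 37 °C, the 24 h libraries did not overlap those of 1 h and were at least 2-fold higher in 70 of the 150 genes (34.8% of base genes) and at least 2-fold lower in 4 (10.8% of base genes). Since these libraries took part in the choice of the genes, the counts are a description, and they depended on the scaling. On column totals the median base gene was itself 0.60 higher in log2 at 24 h than at 1 h, and with TMM-scaled library sizes, where that shift was −0.04, 36 genes were higher and 10 lower, against 16.2% and 21.0% of base genes. The counts also moved when a 37 °C 1 h library was left out. With 1 library left at that hour, the condition of no overlap is easier to meet for any gene.

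Among the named genes, the dehydrin Pp3c13_20930 had the highest minimum, with a lowest d of 2.73. It was read at 38.1 and 69.4 CPM at 37 °C after 1 h, against 13.1 and 7.36 CPM at 24 °C. After 12 h it stood at 91.1 and 98.1 CPM at 37 °C, against 7.57 and 5.35 CPM at 24 °C. At 30 °C all 8 of its values lay between 6.40 and 11.9 CPM, against 3.002 to 13.1 CPM in the 24 °C libraries. Hour by hour the 30 and 24 °C libraries overlapped after 1, 6 and 12 h, whereas after 24 h both 30 °C libraries (11.8 and 8.19 CPM) lay above both 24 °C libraries (3.002 and 6.81 CPM), a log2 fold change of 0.86 ± 0.43 that was not called (SE, edgeR adjusted p = 0.13). The other gene on the late embryogenesis abundant and dehydrin list, Pp3c2_16750, peaked early instead. Its name is a family label that also includes hydroxyproline-rich glycoprotein, and whether the product acts like a dehydrin was not tested. Pp3c2_16750 had 86.9 and 174 CPM at 37 °C after 1 h, against 4.91 and 6.69 CPM at 24 °C. After 6 h it had 16.5 and 11.2 CPM at 37 °C, against 4.61 and 3.58 CPM at 24 °C.

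Some product names mention families that take part in folding or act beside chaperones. The superfamily name of Pp3c27_2580 includes the HSP90-like ATPases but does not settle its family. Pp3c27_2580 was read at 278 and 185 CPM at 37 °C after 24 h, against 54.7 and 61.5 CPM at 24 °C. Pp3c23_17310, a cyclophilin, which speeds the turning of proline bonds during folding, had 68.7 and 59.9 CPM at 37 °C after 1 h, against 12.1 and 9.20 CPM at 24 °C. Pp3c22_7900, named as a type 5 protein phosphatase, of a family that binds HSP90 through tetratricopeptide repeats, had 43.4 and 50.01 CPM at 37 °C after 24 h, against 8.53 and 9.45 CPM at 24 °C. In each of these 3 genes both heated libraries exceeded both unheated ones at the hour given. Pp3c13_1670, whose sites are printed above, had 80.9 and 193 CPM at 37 °C after 1 h, against 31.6 and 28.8 CPM at 24 °C. Pp3c4_21510, the other gene with listed sites, had 185 and 329 CPM at that hour, against 51.4 and 45.0 CPM at 24 °C.

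The remaining named genes covered membranes, organelles and signalling. Pp3c2_36820, of the Erv1/Alr family, known in yeast for forming disulfide bonds in the mitochondrial intermembrane space, had 82.0 and 84.0 CPM at 37 °C after 24 h, against 24.8 and 20.2 CPM at 24 °C. Pp3c16_7780, with a calcium-dependent lipid-binding domain, had 199 and 293 CPM at 37 °C after 1 h, against 21.9 and 25.1 CPM at 24 °C, and was lower, at 48.5 and 52.1 CPM, after 6 h at 37 °C. Pp3c21_19070 encodes an enzyme of the plastid isoprenoid pathway, a diphosphate synthase, and was scarcely read, at 13.9 and 14.8 CPM at 37 °C after 1 h, against 0.327 and 2.18 CPM at 24 °C. Pp3c27_1720, a WD40 repeat protein, of a fold that serves as a scaffold for complexes, had 132 and 139 CPM at 37 °C after 1 h, against 47.9 and 35.8 CPM at 24 °C. For each of these genes the heated libraries lay above the unheated ones at the hour given.

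Homologs of light and clock genes, as listed by the study, were also members. Pp3c16_18760, listed by the study as a homolog of the phytochrome gene PHYC, a red light receptor, had 51.2 and 136 CPM at 37 °C after 12 h, against 16.7 and 15.7 CPM at 24 °C. Its 24 °C libraries of 1 h had 4.09 and 4.02 CPM. Pp3c16_12520, listed as a homolog of CKB4, a regulatory subunit of casein kinase that bears on the clock in Arabidopsis, had 44.7 and 57.2 CPM at 37 °C after 12 h, against 20.9 and 22.6 CPM at 24 °C. Over the 150 genes, the highest 24 °C hour was at least 2-fold above the lowest, as CPM + 1, in 58, or 38.7%, against 28.9% of base genes. The 24 °C libraries took part in the choice, and the members were read less than base genes. That share is therefore a description, and nothing is read from it about a daily course.

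Of the 10 genes with the highest lowest d, all but the dehydrin Pp3c13_20930 had no product name, and these 9 were at least 2-fold higher in 37 °C 1 h replicate 2 than in replicate 1. The first, Pp3c12_22320, had 27.3 and 833 CPM at 37 °C after 1 h, against 5.89 and 29.5 CPM at 24 °C, so replicate 1 lay below one unheated library. After 6 h it had 464 and 500 CPM at 37 °C, against 0.236 and 3.70 CPM at 24 °C, with no overlap. The second, Pp3c23_5890, had 3.03 and 91.1 CPM at 37 °C after 1 h, against 0.164 and 1.34 CPM at 24 °C. Pp3c7_13140 had the highest 37 °C 1 h replicate of these 10 genes, with 188 CPM in replicate 1 and 1807 CPM in replicate 2, against 3.27 and 20.1 CPM at 24 °C. The other 6 without a name (Pp3c26_14540, Pp3c13_16610, Pp3c19_1590, Pp3c4_12160, Pp3c14_24010 and Pp3c24_1540) had 2.56 to 26.7 CPM in replicate 1 and 96.3 to 666 CPM in replicate 2 at 37 °C after 1 h. Of the first 10 genes, 5 were not kept once replicate 2 was left out.

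At the edges of the rule, the last 3 genes inside had lowest values of d of 1.05 (Pp3c4_200), 1.04 (Pp3c20_3750) and 1.04 (Pp3c1_21790), and the next 3 outside had 1.03 (Pp3c11_6920), 1.03 (Pp3c17_18320) and 1.03 (Pp3c24_5540). On the 30 °C limit, the highest values inside were 0.49 for each of Pp3c5_280, Pp3c2_14220 and Pp3c15_11340, and the nearest outside were 0.52 for Pp3c11_20430, a heat shock factor gene, 0.52 for Pp3c7_14860 and 0.52 for Pp3c11_15990. Genes on either side of both limits thus had nearly equal values, and the limits cut through a continuous range.

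Levels at 24 °C spanned a wide range. The most read members were Pp3c7_8990, with 3031 and 2650 CPM at 37 °C after 24 h, against 654 and 676 CPM at 24 °C, and Pp3c11_16970, with 11590 and 10220 CPM at 37 °C after 24 h, against 326 and 288 CPM at 24 °C. Next was Pp3c15_16980, with 818 and 687 CPM at 37 °C after 24 h, against 147 and 128 CPM at 24 °C. Its neighbour in the numbering, Pp3c15_16990, is also a member, and the ratio of their CPM stayed between 1.02 and 1.07 in all 24 libraries. Whether reads of near-identical copies were shared between them was not tested. In all, 7 pairs of members stood next to each other in the numbering. The least read members were Pp3c25_4290, Pp3c26_3430 and Pp3c15_11340. Pp3c25_4290 had 13.95 and 14.6 CPM at 37 °C after 24 h, against 1.11 and 1.98 CPM at 24 °C. Pp3c26_3430 had 5.05 and 3.77 CPM, against 0.632 and 0.220 CPM. Pp3c15_11340 had 10.7 and 8.65 CPM, against 0.790 and 1.10 CPM. In all 3 the heated libraries of that hour lay above the unheated ones.

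**Figure D3:**
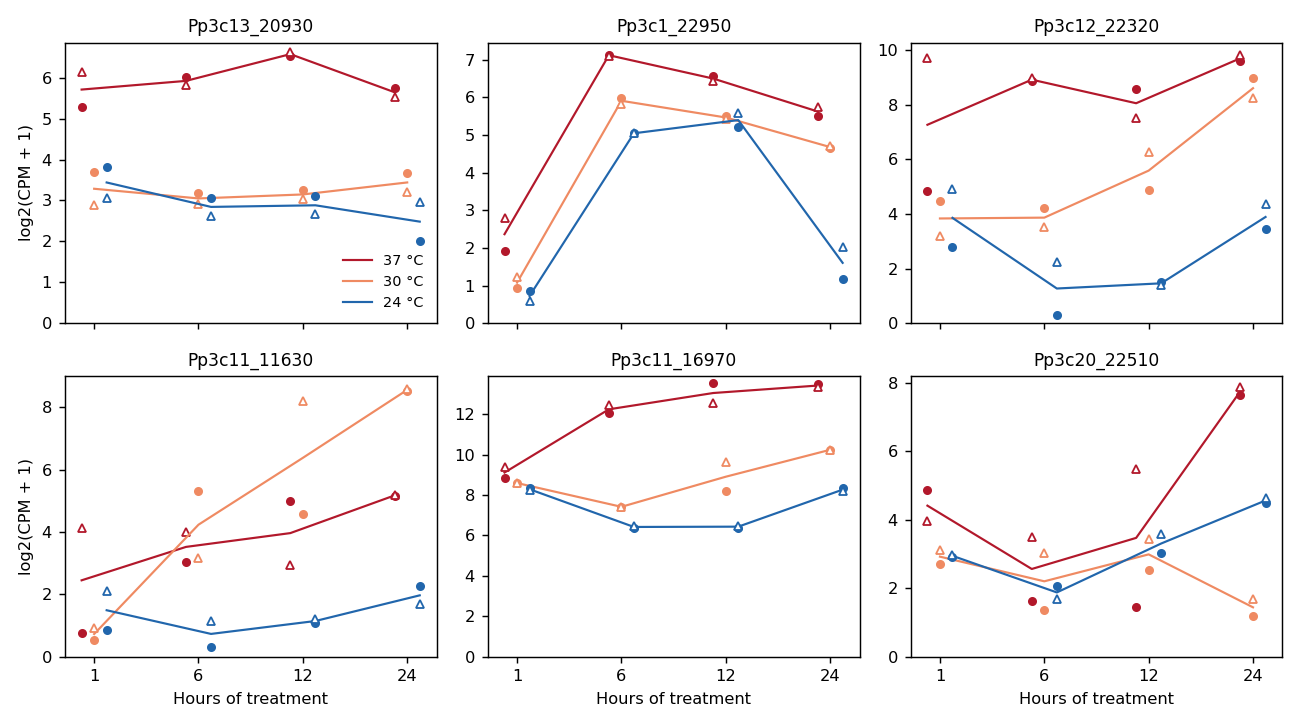
Levels of 6 members as log2(CPM + 1) against hours of treatment (evenly spaced) at 37, 30 and 24 °C. Filled circles are replicate 1, open triangles replicate 2 and lines join the means of the 2 libraries; Pp3c11_11630 is higher at 30 °C than at 37 °C after 24 h (367 and 382 CPM against 34.7 and 35.4 CPM), and Pp3c20_22510 is lower at 30 °C than at 24 °C after 24 h (1.30 and 2.21 CPM against 21.5 and 23.7 CPM).

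Whether the genes changed later at 30 °C was asked with 30 °C libraries that the rule did not use. The 24 °C libraries of those hours were shared with the rule, and a low value in them raised both d at 37 °C and the fold change at 30 °C, so the counts of higher and lower members are not independent of the choice, and nothing is read from their distance to the share over all genes. edgeR's quasi-likelihood test was fitted to all 24 libraries, and a gene was called where the Benjamini-Hochberg adjusted p was under 0.05 and it differed at least 2-fold, that is by 1 or more in log2. All 150 genes passed the filter on low counts. After 6 h, 5 of them were called higher at 30 °C than at 24 °C, against 0.658% of all genes tested, and 0 were lower (0.457% of all genes), with 1 lower at an unadjusted p under 0.05 and 0 lower by DESeq2. After 12 h, 9 were higher, against 1.61% of all genes, and 0 were lower (1.05%), with 0 lower at an unadjusted p under 0.05 and 0 by DESeq2. After 24 h, 39 were higher, or 26.0% against 9.3% of all genes, and 1 was lower (9.41% of all genes). The counts depended on the method. DESeq2 gave 10, 13 and 39 higher after 6, 12 and 24 h, against 0.868%, 2.17% and 8.7% of all genes. By limma-voom treat, which tests against the 2-fold limit itself, 0, 0 and 5 were higher, and 0 were lower after 24 h. Its shares over all genes were 0.00467%, 0.0373% and 0.896% higher, and 2.93% lower after 24 h. The median log2 fold change was 0.49 after 6 h, 0.39 after 12 h and 0.69 after 24 h, against −0.01, −0.01 and 0.07 over all genes tested.

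**Figure D4:**
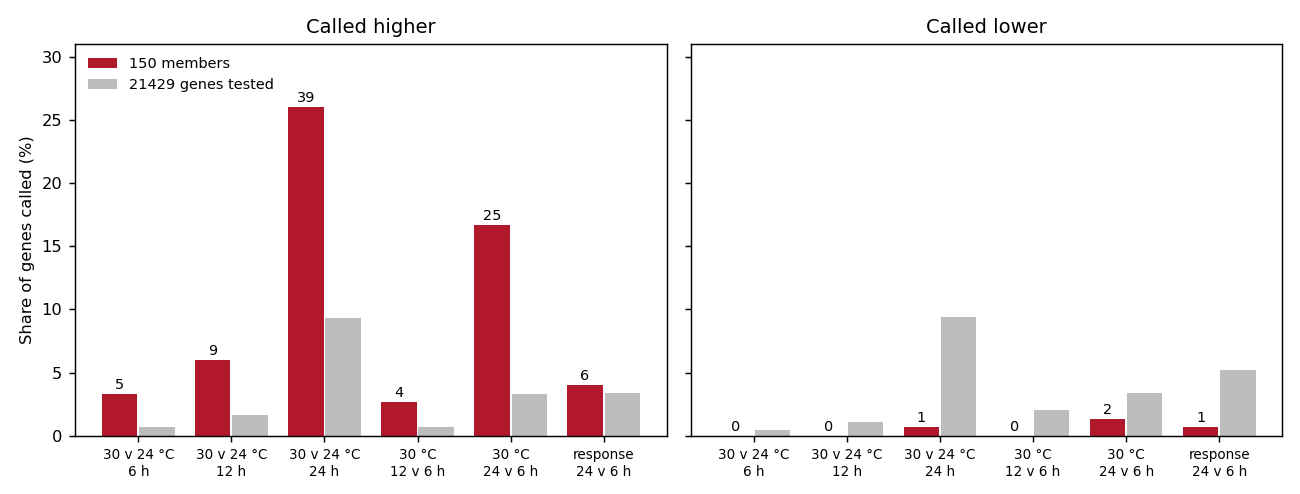
Share of genes called higher (left) and lower (right) in each tested comparison, in percent, for the 150 members (red) and all 21429 genes tested (grey), with the number of members above each red bar. The share of members called higher is 26.0% for 30 against 24 °C after 24 h, where it is 9.3% for all genes, and 4.0% for the difference between the responses at 24 and 6 h, where it is 3.42%.

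In all, 42 genes were called higher at 1 or more of these hours, 0 at all of them and 30 at 24 h only, which does not show that their response was absent earlier. Over all genes tested, 141, 344 and 1992 were called higher after 6, 12 and 24 h. The overlap of those calls was not counted, so nothing is read from this pattern about the members. Of the 372 other sustained genes, 53, 90 and 163 were called higher after 6, 12 and 24 h, or 14.2%, 24.2% and 43.8%. Among the 83 genes kept without 37 °C 1 h replicate 2, the counts were 3, 5 and 20. The counts rested on few libraries, and in the fits named next the counts over all genes tested fell as well. The 6 h count was 2 without 24 °C 6 h replicate 2 and 3 without 24 °C 6 h replicate 1 or 30 °C 6 h replicate 1. The 12 h count was 3 without 24 °C 12 h replicate 1 and 4 without 24 °C 12 h replicate 2 or 30 °C 12 h replicate 2, and the 24 h count was 23 without 24 °C 24 h replicate 1.

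Of the genes called at 30 °C after 24 h, Pp3c11_11630 had the largest rise. It was read at 367 and 382 CPM at 30 °C, against 3.79 and 2.197 CPM at 24 °C, a log2 fold change of 6.70 ± 1.30 (SE, edgeR adjusted p = 0.00077). At 37 °C it had 34.7 and 35.4 CPM at that hour, below both 30 °C libraries. After 12 h its 30 °C libraries had 22.6 and 291 CPM, against 1.12 and 1.31 CPM at 24 °C, and the call at 12 h (edgeR adjusted p = 0.0064) was lost without 24 °C 12 h replicate 1, 24 °C 12 h replicate 2 or 30 °C 12 h replicate 2. Pp3c12_22320 had 500 and 301 CPM at 30 °C after 24 h, against 9.80 and 19.3 CPM at 24 °C, a log2 fold change of 4.59 ± 1.14 (edgeR adjusted p = 0.005), which was lost without 24 °C 24 h replicate 1. Pp3c23_5890 had 25.4 and 26.4 CPM at 30 °C, against 0.790 and 2.42 CPM at 24 °C, a log2 fold change of 3.88 ± 1.11 (edgeR adjusted p = 0.012), also lost without that library. Of these 24 h calls 0 held by limma-voom treat, and that of Pp3c23_5890 was also lost by limma-voom eBayes. Without 37 °C 1 h replicate 2 the rule did not keep Pp3c11_11630, Pp3c17_6790, Pp3c11_16970, Pp3c26_8040, Pp3c3_9740, Pp3c20_3750 and Pp3c14_9250, named here or below. At 37 °C after 1 h Pp3c11_11630 had 0.698 and 16.6 CPM, against 0.818 and 3.35 CPM at 24 °C.

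The only gene called lower at 30 °C after 24 h was Pp3c20_22510, with 1.30 and 2.21 CPM, against 21.5 and 23.7 CPM at 24 °C, a log2 fold change of −3.87 ± 1.00 (edgeR adjusted p = 0.0065). The call was lost without 30 °C 24 h replicate 1. At 37 °C after 24 h this gene had 199 and 231 CPM, so the heated groups lay on opposite sides of the 24 °C libraries.

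Of the genes called at 30 °C after 6 h, Pp3c17_6790 had 86.2 and 69.9 CPM, against 6.26 and 8.15 CPM at 24 °C, a log2 fold change of 3.38 ± 0.48 (edgeR adjusted p = 0.001), and it kept its call without each library of the comparison. Pp3c7_19640 had 27.4 and 20.6 CPM, against 1.65 and 4.197 CPM at 24 °C (2.98 ± 0.59, edgeR adjusted p = 0.012), and its call was lost without 24 °C 6 h replicate 1, 24 °C 6 h replicate 2 or 30 °C 6 h replicate 1. Pp3c3_9640 had 12.99 and 8.76 CPM, against 2.95 and 2.96 CPM at 24 °C (1.82 ± 0.27, edgeR adjusted p = 0.0013). After 12 h, Pp3c11_16970 had 291 and 783 CPM at 30 °C, against 82.9 and 88.0 CPM at 24 °C (2.53 ± 0.37, edgeR adjusted p = 0.00065). Of the named products, the PHYC homolog Pp3c16_18760 rose at 30 °C after 24 h to 17.4 and 18.1 CPM, against 5.06 and 6.59 CPM at 24 °C (1.41 ± 0.42, edgeR adjusted p = 0.015), a call that was lost without 24 °C 24 h replicate 1 and by limma-voom eBayes and treat.

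Differences between hours within 30 °C involve only libraries that the rule did not use, but they are not independent of the choice. The hours differ in time of day, and the 24 °C libraries of these hours took part in the rule. The lowest 24 °C mean fell at 6 h in 59 of the 150 genes, against 21.97% of base genes. Nothing is therefore read from the distance of the counts below to the share over all genes. Between 12 h and 6 h at 30 °C, 4 genes were called higher, against 0.672% of all genes, and 0 lower (2.05%), with 5 lower at an unadjusted p under 0.05 and 0 lower by DESeq2. Between 24 h and 6 h, 25 were called higher, or 16.7% against 3.3% of all genes, and 2 lower (3.38%). The 83 genes kept without 37 °C 1 h replicate 2 held 9 of the 25, and the other 67 held 16. The median log2 fold change was 0.39 over the 150 genes and 0.11 over the 83, against −0.01 over all genes tested. At 24 °C the same genes also differed between these hours. Of the 25, 20 were also at least 1 higher in log2 at 24 h than at 6 h at 24 °C, and over the 150 genes 43 did, against 10.2% of all genes. By limma-voom treat the 25 were 1 (0.14% of all genes) and the 4 were 0 (0.0327%), and by limma-voom eBayes the 25 were 14 (3.99%). With only the libraries of the comparison the counts were 42 (5.62%) and 2 (0.451%). In each fit without a library named next, the count over all genes tested fell as well. The count of 25 was 4 without 30 °C 6 h replicate 2, 7 without 30 °C 24 h replicate 1 and 11 without 30 °C 6 h replicate 1, and that of 4 was 1 to 2 without 30 °C 6 h replicate 1, 30 °C 6 h replicate 2 or 30 °C 12 h replicate 2.

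Among the 25, Pp3c23_14420 had 26.9 and 18.5 CPM at 30 °C after 24 h, against 0.525 and 0.355 CPM after 6 h, a log2 fold change of 5.51 ± 1.36 (edgeR adjusted p = 0.014). At 24 °C it had 1.58 and 6.81 CPM after 24 h, against 0.236 and 0.123 CPM after 6 h. Pp3c3_9740 had 30.6 and 21.8 CPM at 30 °C after 24 h, against 0.918 and 0.355 CPM after 6 h (5.22 ± 1.30, edgeR adjusted p = 0.014), and Pp3c7_13140 had 116 and 122 CPM, against 4.99 and 2.72 CPM (4.82 ± 1.03, edgeR adjusted p = 0.0051), which was lost without 30 °C 6 h replicate 2. The kinase gene with tetratricopeptide repeats, Pp3c20_8180, had 15.1 and 19.7 CPM at 30 °C after 24 h, against 5.77 and 6.04 CPM after 6 h (1.42 ± 0.20, edgeR adjusted p = 0.0002). At 24 °C it had 9.01 and 10.1 CPM after 24 h, against 4.96 and 4.94 CPM after 6 h. The call of Pp3c20_8180 held without each library of the comparison, whereas those of Pp3c23_14420 and Pp3c3_9740 were lost in 3 of 4 such fits.

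Between 12 h and 6 h at 30 °C, Pp3c17_6790 had 389 and 545 CPM after 12 h, against 86.2 and 69.9 CPM after 6 h (2.41 ± 0.43, edgeR adjusted p = 0.0017), while at 24 °C it had 183 and 248 CPM after 12 h, against 6.26 and 8.15 CPM after 6 h. Pp3c26_8040 had 57.2 and 142 CPM at 30 °C after 12 h, against 33.2 and 24.6 CPM after 6 h (1.60 ± 0.37, edgeR adjusted p = 0.014), and its call was lost in 3 of 4 fits that left out a library.

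The difference between the 30 °C responses at 24 h and at 6 h subtracts the unheated change between the hours. That change comes from 24 °C libraries that the rule used, so the calls are not independent of the choice. The difference was called higher at 24 h in 6 genes, or 4.0% against 3.42% of all genes. It was called lower in 1, against 5.23% of all genes, and the share called higher lay near that of all genes. The median was 0.17, against 0.04 over all genes tested. The count of 6 was 3 without 24 °C 6 h replicate 2 or 24 °C 24 h replicate 2, and the count of 1 was 0 without 24 °C 24 h replicate 1. In these fits the counts over all genes tested fell as well. By limma-voom treat both counts were 0 (0.056% and 0.565% of all genes). With only the libraries of the comparison they were 14 (5.99%) and 2 (6.18%). The largest difference was that of the F-box gene Pp3c1_22950, which encodes a protein of the kind that selects substrates for ubiquitin ligases. It had 24.2 and 25 CPM at 30 °C after 24 h, against 1.26 and 3.08 CPM at 24 °C, and 62.2 and 56.0 CPM at 30 °C after 6 h, against 32.0 and 32.0 CPM at 24 °C. Its level at 24 °C was low at 24 h and 1 h and high at 6 h and 12 h, and at 30 °C after 24 h it was above the 24 °C libraries. Pp3c9_24360 had the same order, with 17.6 and 20.9 CPM at 30 °C after 24 h, against 1.74 and 1.98 CPM at 24 °C, and 39.5 and 34.9 CPM at 30 °C after 6 h, against 19.5 and 21.2 CPM at 24 °C. In Pp3c3_9640, the gene with the lower response, the 24 h libraries had 10.9 and 12.8 CPM at 30 °C, against 9.32 and 7.47 CPM at 24 °C.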

How the data were processed

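Messenger RNA of protonemata was sequenced in 24 paired-end, strand-specific libraries. The authors deposited raw read counts per gene, with no normalization, made with bcl2fastq 1.8.4, BWA 0.7.17.1 and featureCounts at default settings. Strand is ignored at those settings, and reads from a gene and an overlapping antisense partner therefore cannot be told apart; near-identical genes may share or lose reads. Totals of 4332911 to 10696081 counts limit precision for genes of a few CPM. Intervals of counting error were not needed, since libraries were the unit.

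The 150 members were found with Python 3.11.15 from CPM on column totals, as stated in the report. Tests used edgeR 4.0.16 in R 4.3.3. The filter was a CPM above 0.5 in 2 or more libraries (21429 genes). After TMM scaling, the 12 group means were fitted together by quasi-likelihood. P-values were adjusted by Benjamini-Hochberg over all genes in each comparison. The standard error was derived from the F statistic (log2 fold change over root F) with 1 estimate of spread over the 12 groups. The fit was tested on simulated data with changes of known size. The groups come from the sample titles.

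Comparisons of 37 with 24 °C, and of 30 with 24 °C after 1 h, were not tested because they chose the members. The members and lists were chosen with earlier results of these data known. Genes named are the first 10 by minimum d, those with a product name, the 3 largest calls in each direction of each comparison, those next to the limits, the most and least read at 24 °C and those in the study's motif and clock tables. Product names come from the study's tables. No member identifier was found in the RefSeq table at hand, so promoters, proteins and coordinates are not shown. Alternatives were DESeq2 1.42.0, limma 3.58.1 with voom, RLE scaling, library totals, other filters, a block for the replicate number, a fit restricted to the groups compared, adjusted p alone without a fold change limit, other settings of the rule and each library left out. Counts over the 83 members kept without 37 °C 1 h replicate 2 were added after seeing the data.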

Additional observations from a re-analysis of the deposited data

Results flagged for a closer look

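For 7 of the 150 genes the response to 30 °C differed between 24 h and 6 h by the interaction test of edgeR's quasi-likelihood model (2 libraries in each of 4 groups). The 24 °C libraries of both hours took part in the rule, so these calls are not independent of the choice of the genes. The response was higher at 24 h in Pp3c1_22950, by 2.52 ± 0.41 on the log2 scale (SE, edgeR adjusted p = 0.0008), in Pp3c9_24360 by 2.34 ± 0.34 (edgeR adjusted p = 0.00029), in Pp3c20_3750 by 2.30 ± 0.71 (edgeR adjusted p = 0.043), in Pp3c12_9400 by 1.87 ± 0.45 (edgeR adjusted p = 0.012), in Pp3c14_9250 by 1.32 ± 0.41 (edgeR adjusted p = 0.046) and in Pp3c13_3890 by 1.25 ± 0.27 (edgeR adjusted p = 0.0061). It was lower at 24 h in Pp3c3_9640, by −1.55 ± 0.37 (edgeR adjusted p = 0.011). Pp3c12_9400, Pp3c14_9250 and Pp3c13_3890 are given here because this difference was called, after their values were seen. In 6 of the 7 the unheated level was lower at 24 h than at 6 h, with log2 differences of −3.92 to −0.46, and in Pp3c3_9640 it was higher by 1.54. The tested difference subtracts this unheated change, so these signs are partly built into the calls and are no separate observation. Within 30 °C, the log2 change from 6 to 24 h was −1.40 in Pp3c1_22950 and −1.08 in Pp3c9_24360. In the remaining genes with a higher response it was positive. The calls of Pp3c1_22950 and Pp3c9_24360 held in all 8 fits that left out a library, that of Pp3c3_9640 in 6 and that of Pp3c20_3750 in 1.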

How the results depend on the processing

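With 2 libraries a group, leaving out 1 library moved 22 of 88 counts of members by more than 1.5 times, and other settings moved 31 of 140. Named genes kept their direction in every refit, but lost their call in 79 of 216 refits that left out a library and in 64 of 500 others. Leaving out a library gave 2 to 5 members higher at 30 °C after 6 h, 3 to 9 after 12 h, 23 to 37 after 24 h (lower, 0 to 1), 1 to 5 between 12 and 6 h at 30 °C, 4 to 17 higher and 1 to 3 lower between 24 and 6 h, 3 to 5 with a higher and 0 to 1 with a lower response at 24 h, 83 to 150 kept by the rule, and 55 to 106 higher and 3 to 20 lower at 37 °C after 24 h than after 1 h. With limma-voom treat, which tests against a 2-fold change, counts higher were 0, 0 and 5 after 6, 12 and 24 h (lower after 24 h, 0), 0 between 12 and 6 h, 1 higher and 0 lower between 24 and 6 h, and 0 and 0 for the responses. Over all genes tested, treat called 0.896% higher after 24 h and 0.14% between 24 and 6 h, against 9.3% and 3.3% in the main fit. limma-voom eBayes gave 14 between 24 and 6 h, and DESeq2 gave 10 higher after 6 h and 2 with a lower response. With only the libraries of a comparison, 2 were lower after 24 h, 2 higher between 12 and 6 h, 42 higher between 24 and 6 h, and 14 had a higher and 2 a lower response. The lower response was called in 2 with no filter and with CPM above 1. Between 24 and 6 h at 30 °C, library totals gave 1 lower and no fold change limit 4. Without median centring the rule kept 89 members, and with d below 0.25 at 30 °C after 1 h it kept 88. With TMM-scaled CPM, 36 were higher and 10 lower at 37 °C after 24 h than after 1 h. Of the 83 members kept without 37 °C 1 h replicate 2, 3, 5 and 20 were higher at 30 °C after 6, 12 and 24 h, 1 between 12 and 6 h and 9 between 24 and 6 h. The causes were not tested. The replicate numbers were not taken as a pairing, since deviations of same-numbered libraries correlated at −0.05 to 0.21 in the comparisons, and the replicate block moved 1 count by more than 1.5 times, that of a lower response, to 2, and 4 others by 1 or 2 genes. Low counts limit the genes of a few CPM most.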

Other observations

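The 24 °C libraries took part in the choice of the genes, so their course over the hours without heat is given as a description. The highest 24 °C mean fell at 1 h in 30 genes, at 6 h in 15, at 12 h in 52 and at 24 h in 53, where the shares of base genes were 18.3%, 21.8%, 39.0% and 20.9%. The lowest fell at 1 h in 56, at 6 h in 59, at 12 h in 16 and at 24 h in 19, where those of base genes were 41.7%, 21.97%, 12.9% and 23.5%. Between 12 h and 6 h at 24 °C, 14 genes had a log2 fold change of at least 1 and 4 of at most −1, against 4.30% and 5.95% of all genes tested. Between 24 h and 6 h, 43 had at least 1 and 8 at most −1, against 10.2% and 11.9% of all genes tested. The identifiers of the 150 genes fell on 26 of the 27 numbered chromosomes that hold base genes.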
